A study of Mus musculus with 29 samples.

Results

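Green cone photoreceptors were profiled for open chromatin in 4 of the 29 libraries of the study, 2 from cells sorted once (single 1 and single 2) and 2 from cells sorted a second time (double 3 and double 4). The libraries were taken by their sort label, and the peak list of each was compared with the others and with the lists of 10 libraries from rods, blue cones and bipolar cells. The other 15 libraries were RNA-seq and are not analysed here. ATAC-seq marks open chromatin by inserting sequencing adapters with a transposase, so that promoters and enhancers in use give peaks of reads.

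All 4 green cone libraries came from retinas of Opn1mw-GFP mice at postnatal day 56. The reporter marks cells that use the promoter of Opn1mw, the medium-wavelength (green) cone opsin. Retinas were dissociated with papain and cells were collected by GFP intensity. Rods came from Nrl-eGFP mice at day 56, in which the promoter of the rod factor gene Nrl drives the reporter. Blue cones came from Nrl-eGFP;NrlKO mice at day 56, whose photoreceptors take a blue cone fate without Nrl and stand in for native blue cones. Rods and blue cones were sorted once. The 6 bipolar libraries (pan-BC, ON-BC and OFF-BC, 2 each) came from Otx2-GFP+/-; Grm6-YFP+/+ mice at day 42 to 46, in which bipolar cells are strongly GFP-positive and ON-BC carry YFP, and OFF-BC were sorted a second time. Photoreceptor libraries, green cones included, were made for previous work of that laboratory and analysed again. Whether the replicates of a sort were separate animals, pools of retinas or parts of 1 preparation is not given in the sources used here, so that p-values over libraries measure only the spread between these libraries.

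Rods and cones are sister photoreceptor types that use separate copies of the light-sensing cascade: 1 set of transducin, phosphodiesterase and channel subunits in rods and another set, with the cone opsins, in cones. Rods outnumber cones by far in the mouse retina, and cell bodies of both types lie in the same layer. A sort for cones therefore starts from a large excess of rods. The homeodomain factors CRX and OTX2 bind TAATCC, called the K50 homeodomain motif, in the regulatory elements of both types.

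The sequences below are examples of loci named in the comparison of the sorts. They were read from GRCm38/mm10 in windows of 101 bp at the summit of a peak, where the most reads pile up. Windows that reached into an exon were moved off it, which was the case for Pde6b, Cnga1, Pde6g and Gnb3. Capitals mark TAATCC or its reverse complement GGATTA. The first set holds the promoters of 4 rod genes that had a peak in both single-sorted libraries and in neither double-sorted library.
Gnat1, chr9:107679668-107679768, minus strand: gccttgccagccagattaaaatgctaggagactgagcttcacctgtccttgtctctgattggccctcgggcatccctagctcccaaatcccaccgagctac
Pde6b, chr5:108388272-108388372, plus strand: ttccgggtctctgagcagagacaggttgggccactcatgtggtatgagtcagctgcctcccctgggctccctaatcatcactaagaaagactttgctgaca
Pde6g, chr11:120453501-120453601, minus strand: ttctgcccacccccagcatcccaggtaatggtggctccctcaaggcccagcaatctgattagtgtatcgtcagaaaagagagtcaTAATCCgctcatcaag
Cnga1, chr5:72642753-72642853, minus strand: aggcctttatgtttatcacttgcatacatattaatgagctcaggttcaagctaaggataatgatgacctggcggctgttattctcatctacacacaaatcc

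The second set holds cone promoters with a peak in all 4 libraries. Opn1sw encodes the short-wavelength (blue) opsin, and Gnat2 and Gnb3 encode subunits of cone transducin.
Opn1mw, chrX:74127339-74127439, plus strand: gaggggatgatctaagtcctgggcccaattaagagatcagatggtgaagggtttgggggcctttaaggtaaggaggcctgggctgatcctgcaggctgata
Opn1sw, chr6:29380518-29380618, minus strand: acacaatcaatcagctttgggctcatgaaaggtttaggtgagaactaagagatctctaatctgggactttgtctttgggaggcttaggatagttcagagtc
Gnat2, chr3:108092681-108092781, plus strand: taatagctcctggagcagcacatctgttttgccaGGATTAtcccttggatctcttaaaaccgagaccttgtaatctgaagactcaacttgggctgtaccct
Gnb3, chr6:124840276-124840376, minus strand: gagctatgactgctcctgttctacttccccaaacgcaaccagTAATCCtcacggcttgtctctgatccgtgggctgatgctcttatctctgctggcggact

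The third set holds distal regions that were among the highest of those called in both single-sorted libraries alone. They are named by the nearest transcription start site (TSS), and each also had a rod peak in both rod libraries. The region named for Gfi1 lies in an intron of Evi5, and the others are intergenic.
Lpin1, chr12:16425160-16425260, plus strand: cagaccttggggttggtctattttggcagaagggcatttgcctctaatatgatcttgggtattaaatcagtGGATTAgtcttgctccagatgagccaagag
Gfi1, chr5:107766086-107766186, plus strand: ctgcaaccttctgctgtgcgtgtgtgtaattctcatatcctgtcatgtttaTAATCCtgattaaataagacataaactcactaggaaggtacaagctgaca
Peli3, chr19:4948382-4948482, plus strand: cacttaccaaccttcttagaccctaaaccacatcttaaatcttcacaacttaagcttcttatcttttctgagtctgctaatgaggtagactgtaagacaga

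The last set holds introns of Caln1 and Nnmt, 2 of the 5 highest regions called in both double-sorted libraries alone.
Caln1, chr5:130601068-130601168, plus strand: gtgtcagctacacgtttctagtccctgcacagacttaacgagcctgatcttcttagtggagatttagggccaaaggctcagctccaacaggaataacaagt
Nnmt, chr9:48586454-48586554, plus strand: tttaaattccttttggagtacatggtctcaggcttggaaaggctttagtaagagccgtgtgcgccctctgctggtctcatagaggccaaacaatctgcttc

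The sorts differed in depth. Single 1 held 46650 peaks, single 2 held 35974, double 3 held 41824 and double 4 held 28025, where a peak is 1 interval with the value of its highest summit. The number did not separate the sorts, and the same was true of the covered length (18.2, 13.5, 13.9 and 9.65 Mb in that order). The reads themselves were recovered from the values of each peak: the pileup, meaning the number of extended reads over the summit, and the background to which it was compared. The genome-wide background was 1.38 and 0.927 reads over a base in the single-sorted libraries and 0.223 and 0.444 in the double-sorted ones. With reads extended to 200 bp and the default mappable size of the mouse genome in MACS2, this corresponds to 12899065, 8666186, 2080407 and 4155174 reads. The groups did not overlap in depth, so that sort and depth cannot be told apart. Overlaps, region classes, regions called in 1 sort alone, marker promoters and the K50 motif are given again with the 28025 highest peaks of each library, here called equal list size. Depth still differed between these lists, with median pileups of 54, 30, 18 and 16 reads and lowest −log10 q of 12.8, 6.89, 6.53 and 1.33. Sort and depth cannot be told apart at equal list size either.

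Peaks of double-sorted cones were narrower and rested on fewer reads. The median width was 335 and 329 bp in the single-sorted libraries and 300.0 and 309 bp in the double-sorted ones. The median summit pileup was 28 and 23 reads against 12 and 16. The median fold enrichment, which is the pileup plus 1 over the background plus 1, was 8.40 and 8.30 against 7.79 and 8.17. None of the 3 measures overlapped between the sorts, and each gave p = 0.333 in a two-sided exact permutation test over 2 against 2 libraries, the smallest value that the 6 arrangements allow (adjusted p = 0.6 over 9 measures). Fold enrichment turned the other way among peaks with a −log10 q of at least 5, where the mean of the double-sorted medians was higher by 0.278.

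The added 1 weighs more on shallow libraries. The plain ratio of pileup to background had medians of 11.98 and 13.2 in the single-sorted libraries and of 22.5 and 16.7 in the double-sorted ones, so that the order of the sorts was the opposite of that of the deposited fold enrichment. The highest fold enrichment of any peak was 37.0, 33.8, 34.6 and 29.8. Over the regions called in all 4 libraries, the median pileup was 47.8, 39.9, 94.4 and 42.8 times the genome background. Double 4 lay between both single-sorted libraries and double 3 above all others.

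Double 3 also stood apart in the pattern of its values. Over the 22976 regions called in all 4 libraries, log2 pileup had a Pearson r of 0.797 to 0.826 between double 3 and each other library and of 0.919 to 0.953 among the other 3. For log2 fold enrichment the values were 0.740 to 0.773 and 0.810 to 0.890. These are correlations across regions, which are not independent replicates. Double 3 and double 4, the 2 libraries of 1 sort, were the pair least alike in both measures.

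**Figure D1:**
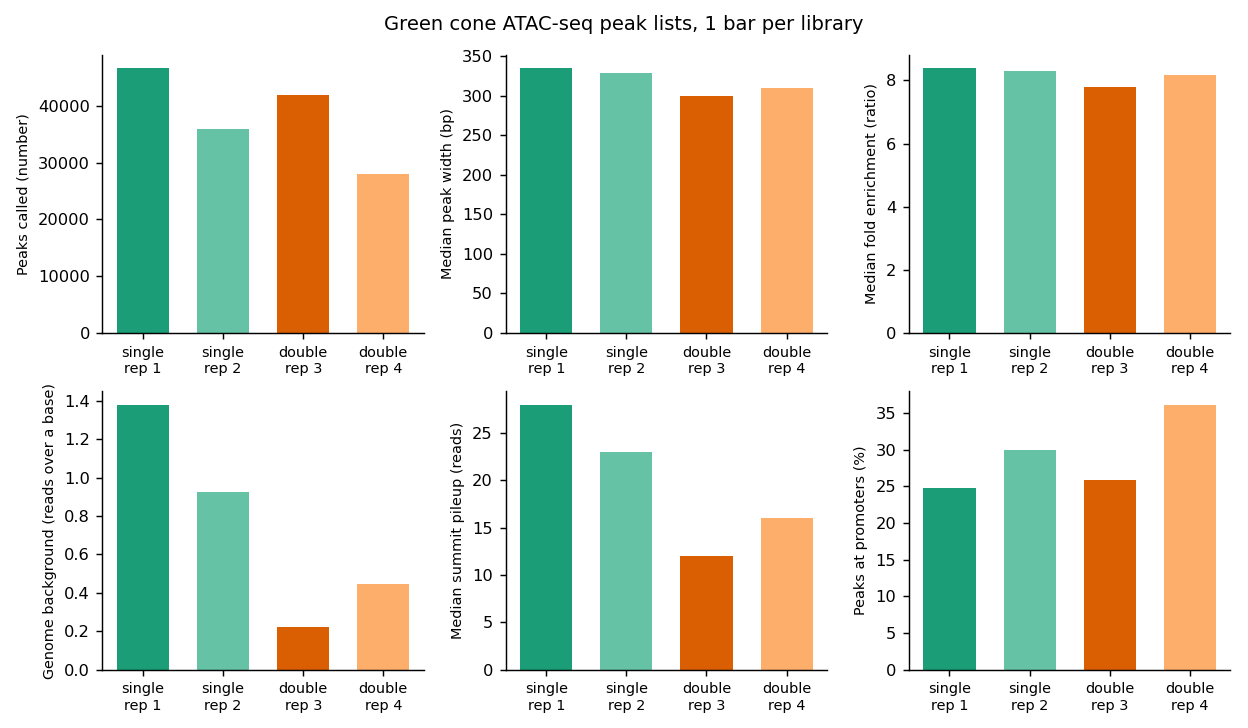
Peak number, median peak width in bp, median fold enrichment, genome background in reads over a base, median summit pileup in reads and share of peaks at promoters, with 1 bar for each green cone library. Width, fold enrichment, background and pileup were lower in both double-sorted libraries (background 0.223 and 0.444 against 1.38 and 0.927), whereas peak number and promoter share overlapped between the sorts.

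Promoter peaks varied less between libraries than distal ones. A summit within 1000 bp before or 100 bp after a TSS was counted as a promoter peak, and there were 11545, 10800, 10837 and 10135 of them in single 1, single 2, double 3 and double 4. Distal peaks numbered 35105, 25174, 30987 and 17890. The share at promoters was therefore 24.7%, 30.0%, 25.9% and 36.2%, and the sorts overlapped.

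Merged over the 4 lists, green cone peaks fell into 55377 regions. Of these, 22976 (41.5%) were called in all 4 libraries and 14980 in 1 library only. Regions called in all 4 were wide (median 472.5 bp for the merged region), 43.6% of them touched a promoter, and 93.4% overlapped a peak called in both blue cone libraries. Rod peaks of both rod libraries overlapped 81.2% of them and pan-BC peaks of both libraries 79.8%. The 5 highest in mean fold enrichment lay nearest to Cdc25c, Mterf2, Tcof1, Dnajc3 and Cep192. At the promoter of Mterf2, a mitochondrial transcription termination factor gene, the fold enrichment was 32.3, 32.4, 32.9 and 29.8 in single 1, single 2, double 3 and double 4.

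Regions that were called in one sort alone differed in how they looked in rods. There were 2855 regions called in both single-sorted libraries and in neither double-sorted library, and 226 of the opposite kind. Of the first, 60.7% overlapped a rod peak and 49.4% a blue cone peak. Of the second, 14.2% overlapped a rod peak and 30.5% a blue cone peak. Pan-BC peaks overlapped 44.3% of the first and 42.0% of the second. Both lists were weak in the libraries that called them, with median pileups of 20 and 13 reads for the first and of 6 and 7 for the second, against 66, 37, 21 and 19 in the regions called in all 4.

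The numbers of these regions depended on list size, and the overlap with rods differed at both sizes. At equal list size, an alternative chosen after seeing the data, 1214 regions were called in both single-sorted libraries alone and 840 in both double-sorted libraries alone. Of the first, 83.5% overlapped a rod peak and 76.5% a blue cone peak. Of the second, 25.4% overlapped a rod peak and 56.5% a blue cone peak. Pan-BC peaks overlapped 52.9% of the first and 52.7% of the second.

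The deposited count table gave the same contrast in reads. It lists normalized read counts of regions of 200 bp for the 12 ATAC-seq libraries without the double-sorted ones, and 99.7% to 100% of each green cone list nevertheless touched a region of the table. At its strongest table region, the median region called in both single-sorted libraries alone had a normalized count of 36.1 in rods, 28.5 in blue cones and 36.2 in the single-sorted green cones themselves. The median region called in both double-sorted libraries alone had 4.17 in rods, 15.6 in blue cones and 15.01 in single-sorted green cones. In regions called in all 4 libraries the medians were 139, 120 and 116 in the same order, so that rods were above blue cones there too. Regions called in both double-sorted libraries alone thus had reads in single-sorted cones although no peak was called there. In bulk samples of this kind, fewer rods among the cells, less open chromatin per rod genome and lower depth cannot be told apart. Whether rods had a part in the contrast was not tested.

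Most of these regions were distal. Among the 2495 distal regions called in both single-sorted libraries alone, 59.3% overlapped a rod peak and 47.7% a blue cone peak. Among the 360 promoter regions of that kind, the shares were 70.6% and 61.1%. A rod count more than 4-fold over the blue cone count, after adding 1 to both, was found in 8.82% of the distal and 5.01% of the promoter regions of that kind. The opposite excess, of blue cones over rods, was more frequent there (11.9% and 7.80%). In regions called in all 4 libraries the rod excess was found in 2.09% of distal and 0.210% of promoter regions and the blue cone excess in 22.9% and 4.59%. None of the 226 regions called in both double-sorted libraries alone had a rod excess, and 32.1% of their 218 distal members had a blue cone excess. In distal regions called in double 3 alone the blue cone excess was found in 26.8%.

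Regions of a single library differed between single 1 and double 3, whereas those of single 2 and double 4 were nearer to each other. Single 1 alone called 7225 regions, of which 40.9% overlapped a rod peak and 22.9% a blue cone peak. Double 3 alone called 5857, of which 7.97% overlapped a rod peak, 11.3% a blue cone peak and 32.2% a pan-BC peak. The latter had a median pileup of 5 reads. Single 2 alone called 1283 regions with 16.6% and 12.3% overlap with rods and blue cones, and double 4 alone called 615 with 12.8% and 11.2%. The overlap with rods and blue cones at equal list size was 76.6% and 59.2% in single 1 alone, 37.0% and 35.2% in single 2 alone, 21.5% and 36.01% in double 3 alone and 32.4% and 35.4% in double 4 alone.

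**Figure D2:**
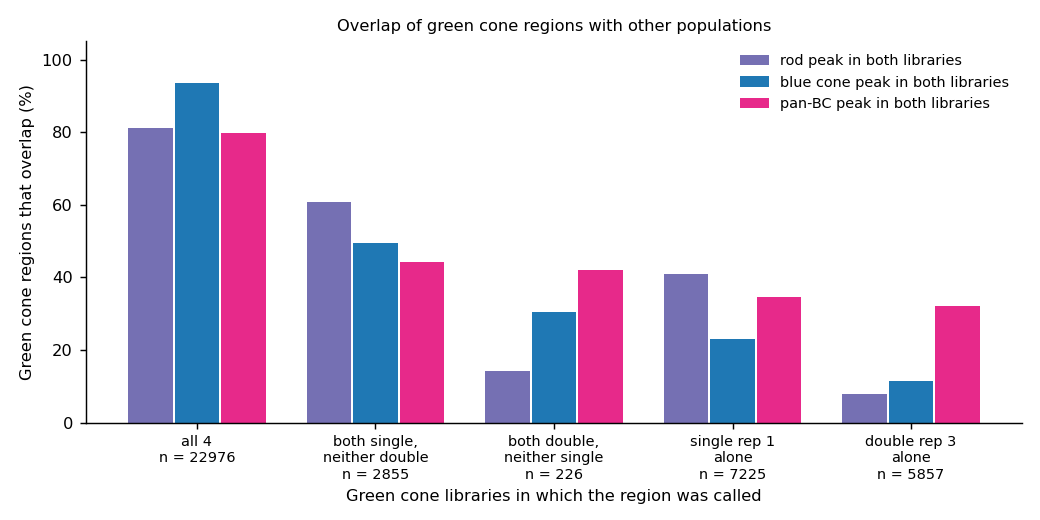
Share of merged green cone regions (%) that overlap a peak called in both libraries of rods, blue cones or pan-BC, by the green cone libraries that called the region, with n regions under each group. Rod overlap was 60.7% in regions called in both single-sorted libraries alone and 14.2% in those called in both double-sorted libraries alone, whereas pan-BC overlap was 44.3% and 42.0%.

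The strongest regions of each kind were named by a rule on mean fold enrichment. The 5 highest called in both single-sorted libraries alone lay nearest to Mir365-2, Lpin1, LOC666331, Peli3 and Gfi1. At the region near Lpin1, which encodes a phosphatidate phosphatase, the pileup was 65 in single 1 and 21 in single 2, and the normalized count was 372 in rods and 57.9 in blue cones. At the region near Peli3, a ubiquitin ligase gene, the pileups were 57 and 21 and the counts 335 in rods and 42.0 in blue cones. The region in the intron of Evi5 near Gfi1, a zinc finger repressor gene, had pileups of 44 and 19 and counts of 224 and 106. In all 5 regions the rod count was above the blue cone count.

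The 5 highest called in both double-sorted libraries alone were nearest to Caln1, Gm13974, Nnmt, Fam114a2 and Tert. The intron of Caln1, a neuronal calcium-binding protein gene, had pileups of 14 and 13 in the double-sorted libraries, and normalized counts of 1.46 in rods, 38.7 in blue cones and 36.7 in pan-BC. The intron of Tert, the telomerase reverse transcriptase gene, had pileups of 12 and 10 and counts of 17.1, 25.4 and 82.9 in the same order. In 2 of the 5 regions the rod count was above the blue cone count. The region near Fam114a2 had 19.3 in rods and 7.499 in blue cones, and the region near Gm13974 had 1.36 in rods, 0.361 in blue cones and 5.94 in pan-BC.

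Overlap with the peak lists of other populations was read from both directions. In the first, the share of green cone peaks that touched a peak called in both libraries of a population by at least 1 bp was taken. For rods it was 63.8%, 70.2%, 59.0% and 75.9% in single 1, single 2, double 3 and double 4, with no separation of the sorts. The shortest list had the highest share. The rod share at equal list size was 81.9% and 78.3% in the single-sorted libraries and 71.0% and 75.9% in the double-sorted ones, a difference of means of −6.66 percentage points. The blue cone share at equal list size was 90.5% and 88.0% against 84.1% and 86.9% (−3.74 points), and the pan-BC share was 75.5% and 75.2% against 74.5% and 74.96% (−0.605 points).

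Peaks that met 1 photoreceptor type and not the other were counted separately. At equal list size, peaks overlapping blue cone but not rod peaks made up 13.0% and 13.3% of the single-sorted lists and 16.2% and 14.3% of the double-sorted ones. Peaks overlapping rod but not blue cone peaks made up 4.34% and 3.54% against 3.01% and 3.28%. Peaks found in none of the 10 other libraries made up 1.17% and 2.66% against 3.53% and 3.004%. The sorts did not overlap in these 3 shares, nor in the rod, blue cone and pan-BC shares, each with p = 0.333 in the exact permutation test, the smallest possible (adjusted p = 0.381 over 8 shares).

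In the other direction, regions were put in classes by the 10 other libraries alone, and the share of each class with a green cone peak was taken. Rod only regions, called in both rod libraries and in no blue cone or bipolar library, numbered 3358. A peak was found in 30.1% and 9.65% of them in the single-sorted libraries and in 10.8% and 2.98% in the double-sorted ones. Blue cone only regions numbered 1689 and had a peak in 56.8% and 38.9% against 50.03% and 25.8%. Regions shared by rods and blue cones but by no bipolar library numbered 2254 and had a peak in 87.1% and 63.4% against 54.8% and 37.6%. This was the class with the widest gap between the sorts over all peaks, with a difference of means of −29.0 points, and the only photoreceptor class in which the sorts did not overlap. The difference was −17.1 points without single 1, −20.4 without double 4, −40.9 without single 2 and −37.7 without double 3.

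At equal list size the rod only and blue cone only classes differed in opposite directions. Rod only regions had a peak in 6.28% and 3.78% against 3.42% and 2.98%, and shared photoreceptor regions in 54.9% and 45.5% against 32.2% and 37.6%. Blue cone only regions had a peak in 22.0% and 22.7% against 27.8% and 25.8%, higher in both double-sorted libraries. Bipolar only regions, called in both pan-BC libraries and in no photoreceptor library, numbered 31213 and had a peak in 0.577% and 0.952% against 1.71% and 1.11%. The 17211 regions called in all 10 libraries had a peak in 91.6% and 89.5% against 83.3% and 87.2%. All 5 classes gave p = 0.333 in the exact permutation test at equal list size, the smallest possible (adjusted p = 0.333 over 5 classes). With the 10000 highest peaks, a list size chosen after seeing the data, the sorts overlapped in the rod only class (means 0.0893% and 0.0298%), and the blue cone only class was still higher in both double-sorted libraries (means 0.829% and 2.34%).

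**Figure D3:**
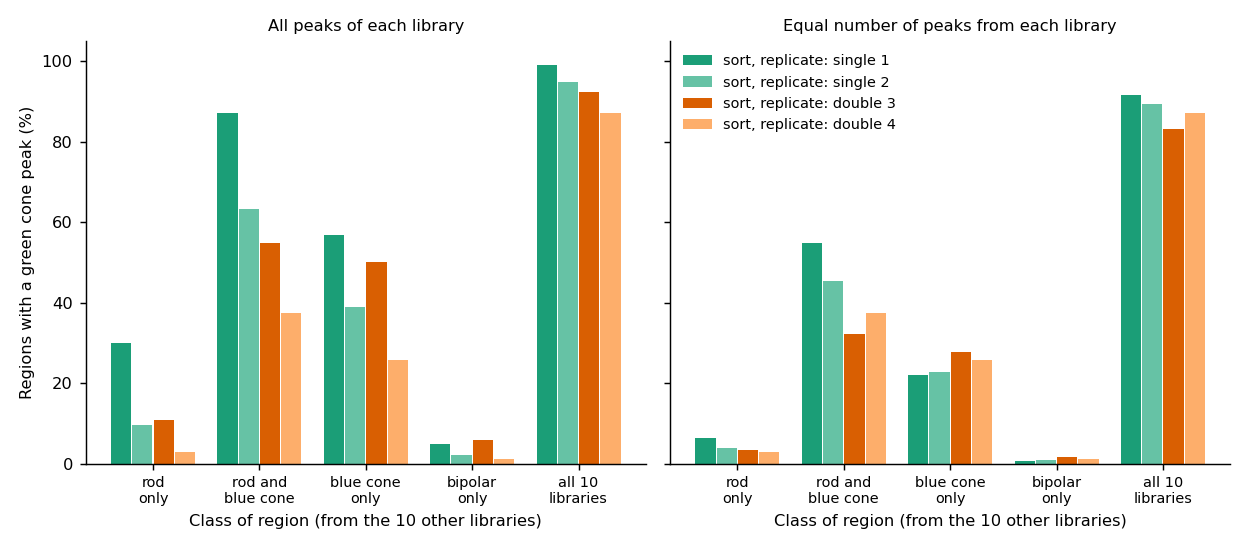
Share of regions (%) of each class, defined from the 10 rod, blue cone and bipolar libraries, that held a green cone peak, with 1 bar per green cone library, for all peaks (left) and for the 28025 highest peaks of each library (right). At equal list size, shared photoreceptor regions had a peak in 54.9% and 45.5% of cases in the single-sorted and 32.2% and 37.6% in the double-sorted libraries, and blue cone only regions in 22.0% and 22.7% against 27.8% and 25.8%.

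Promoters of marker genes showed the contrast at known loci. Of 12 cone markers, 10, 11, 10 and 10 had a promoter peak in single 1, single 2, double 3 and double 4. Of 13 rod markers, 13, 12, 8 and 5 had one. At equal list size the numbers were 10, 9, 6 and 10 for cone markers and 13, 11, 5 and 5 for rod markers. Peaks within 50 kb of a rod marker TSS held 0.0673% and 0.0694% of the summed fold enrichment of the single-sorted lists and 0.0397% and 0.0526% of the double-sorted ones, whereas those of cone markers held 0.0929% and 0.101% against 0.0919% and 0.109%. The part of rod cells in these and the other differences between the sorts was not tested.

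Of the 12 rod markers with a promoter peak in both single-sorted libraries, 4 had none in either double-sorted library. Of all genes with a promoter peak in both single-sorted libraries this held for 239 of 11088 (2.16%). The reverse, a promoter peak in both double-sorted libraries alone, was found for 47 of 10279 genes (0.457%) and for no rod or cone marker. Of the 10 cone markers with a promoter peak in both single-sorted libraries, none lacked it in both double-sorted ones. With lists of equal size, 5 of 11 rod markers and 152 of 10382 genes (1.46%) had a promoter peak in both single-sorted libraries alone, and none of 9 cone markers did. The reverse was found for 88 of 9734 genes (0.904%) and for no rod or cone marker.

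The 4 genes were Gnat1, Pde6b, Pde6g and Cnga1, which encode the alpha subunit of rod transducin, 2 subunits of the rod phosphodiesterase and a subunit of the rod cyclic nucleotide-gated channel. The Gnat1 promoter had a pileup of 120 reads in single 1 and of 36 in single 2, and no peak in double 3 or double 4. If the double-sorted libraries had kept the same share of reads there as at regions called in all 4 libraries, pileups of 29.3 and 26.5 would have been found. The lowest pileup of any called peak was 3 in double 3 and 4 in double 4, and 6 and 8 where the local background was over 4 times that of the genome. Pde6b (68 and 29), Pde6g (100 and 43) and Cnga1 (54 and 17) had 12.1 to 28.1 at the same share. This share is the mean of single 1 and single 2, and single 2 alone would give lower values at all 4 promoters. Cnga1 lay nearest to the lowest called pileups, with 13.4 in double 3 and 12.1 in double 4 from the mean share. The normalized count at the Gnat1 promoter was 770 in rods and 2.02 in blue cones, and at that of Pde6b it was 471 and 3.54. The Pde6g promoter was open in both, with 492 and 138.

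Most other rod promoters had a peak in 1 or both double-sorted libraries. Nrl, the gene of the transcription factor that sets rod fate, had 116 and 40 reads in the single-sorted libraries and 9 and 14 in the double-sorted ones, where 29.8 and 27.0 would have matched the regions called in all 4. Nr2e3, a nuclear receptor gene of rods, had a promoter peak in single 1 alone, with 94 reads. Pde6a had 110, 49 and 16 reads and none called in double 4, and Cngb1 had 95, 29 and 11 and none called in double 4. Slc24a1, a rod exchanger gene, had 57, 20, 9 and 7, and Gngt1, the gamma subunit gene of rod transducin, had 75, 27, 13 and 16. Sag (rod arrestin) had 217, 137, 58 and 51 and Reep6 had 313, 152, 66 and 91. Values scaled from the single-sorted libraries to double 3 and double 4 were 73.4 and 66.4 for Sag and 92.9 and 84.1 for Reep6. Sag lay below them in both libraries, and Reep6 lay below in double 3 and above in double 4. Both promoters were also open in blue cones, with normalized counts of 409 and 543.

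Cone promoters had peaks in both sorts, with a wide spread between the double-sorted libraries. Opn1mw had pileups of 47, 13, 8 and 21, and Opn1sw of 57, 29, 9 and 37. At equal share of reads, 11.2 and 10.1 would have been found in double 3 and double 4 for Opn1mw and 17.3 and 15.7 for Opn1sw, so that double 4 lay above and double 3 below that value at both opsin promoters. Gnat2 (76, 42, 16 and 35) and Gnb3 (151, 75, 20 and 68) followed the same order. Pde6c, a cone phosphodiesterase gene, had 63, 36 and 25 reads in single 1, single 2 and double 4 and no promoter peak in double 3. Arr3 (cone arrestin) had 88, 55, 34 and 28, Pde6h had 69, 44, 24 and 27, and Thrb, a thyroid hormone receptor gene needed for green opsin, had 230, 136, 92 and 67. The Thrb promoter had a normalized count of 632 in rods and 432 in blue cones. That of Gnb3 had 278 and 333, and that of Arr3 121 and 275. Opn1mw, Opn1sw, Gnat2 and Pde6h had 0.779 to 18.6 in rods and 31.7 to 244 in blue cones. Rxrg had a promoter peak in single 2 and double 3 alone, with 10 and 7 reads, and Gngt2 had none in any library.

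**Figure D4:**
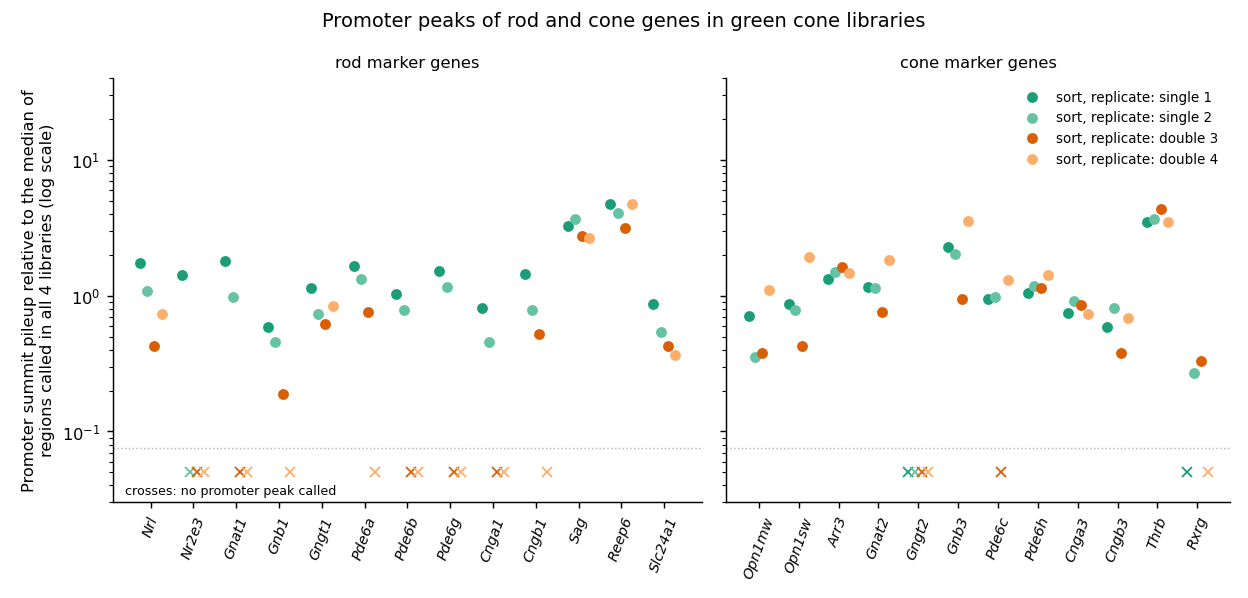
Summit pileup of promoter peaks of 13 rod and 12 cone marker genes in each green cone library, divided by the median pileup of regions called in all 4 libraries (log scale), with crosses for promoters without a called peak. Gnat1, Pde6b, Pde6g and Cnga1 had peaks in both single-sorted libraries and crosses in both double-sorted ones, and no cone marker did.

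Genes used by both photoreceptor types had promoter peaks in most libraries. Of 13 such markers, 12, 12, 10 and 12 had a promoter peak. Crx, the photoreceptor homeodomain gene, had 153, 59 and 30 reads in single 1, single 2 and double 4 and no promoter peak in double 3, and Prph2, a structural protein gene of the outer segment, had 148, 77 and 41 in the same libraries. Otx2 had no promoter peak in any library. With the same share of reads as at regions called in all 4, Crx and Prph2 would have had 41.1 and 45.4 in double 3. Rom1 had 11 and Guca1b 26 in double 3, against 60.4 and 60.1 at that share. Prdm1, Neurod1 and Aipl1 lay above it in double 3, with 87, 73 and 35 against 74.5, 64.9 and 30.7. In double 4, Rom1 and Guca1b had 49 and 47 against 54.6 and 54.4.

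Promoter peaks at markers of other retinal cells ranged from none to 6 of 10 genes. Of all 26180 genes, 11088 had a promoter peak in both single-sorted libraries and 10279 in both double-sorted ones. Of 12 bipolar markers, 2 had a promoter peak in each library, Prkca and Lhx4, and the defining bipolar genes Vsx1, Grm6 and Trpm1 had none. Of 10 Muller glia markers, 5, 5, 6 and 4 had one, of 8 amacrine markers 3, 3, 2 and 1, of 5 horizontal cell markers 2, 2, 3 and 2 and of 7 ganglion cell markers 2, 1, 1 and 1. Of 6 endothelial markers 1, 0, 1 and 0 had one. Microglia and pigment epithelium markers had none in any library. Over all peaks, no list of markers other than that of rods differed by more than 2 promoters between libraries of different sorts. The cone list differed by 4 at equal list size between single 1 and double 3.

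Summit enrichment was then compared at the 22976 regions called in all 4 libraries. The difference of log2 fold enrichment between double and single sort, with each library centred on its median, was tested by limma with a trended prior. No region passed an adjusted p of 0.05 in either direction (0 of 22976, or 0%), and the smallest adjusted p was 0.662. An unadjusted p under 0.05 was found for 1711 regions (7.45%), and with the recovered pileup in place of fold enrichment 0 regions passed and 1331 had an unadjusted p under 0.05. The count depended on which double-sorted library entered. Without double 3, 328 regions passed (87 higher and 241 lower in double 4), and without double 4, 1802 passed (592 higher and 1210 lower in double 3), where the lone library is assumed to vary like the single-sorted ones.

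The regions with the smallest unadjusted p are given as values, none having passed. Those lower in double sort were nearest to Itsn2, Tcp11, H2ac12, Zbtb32 and Gdf5. Upstream of Itsn2 the fold enrichment was 22.9 and 18.5 in the single-sorted libraries and 5.73 and 7.62 in the double-sorted ones, with normalized counts of 540 in rods and 41.2 in blue cones. At the TSS of Tcp11 it was 16.7 and 14 against 5.29 and 4.40, with counts of 921 and 133. Near Gdf5 it was 21.5 and 18.8 against 9.23 and 6.10, with counts of 364 and 55.8. Those higher in double sort were nearest to Irx3, Fbxo9, Slc8b1, Ly6d and Il9r. Near Irx3, an Iroquois homeodomain gene, the fold enrichment was 3.69 and 3.70 against 8.33 and 6.04, with counts of 5.25 in rods, 33.6 in blue cones and 53.4 in pan-BC. Near Ly6d it was 9.42 and 6.02 against 19.8 and 11.2, with counts of 11.9, 44.2 and 50.1.

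The direction of the differences followed the ratio of rod to blue cone counts, but not the classes made from peak lists. The ratio itself holds no green cone count. Its 200 bp region, however, was the one with the highest sum over 12 libraries, the single-sorted green cones included. Over all 22976 regions, both double-sorted libraries were under both single-sorted ones in 13.9% and over them in 26.5%. In the 292 regions with a rod count over 4-fold above the blue cone count, both were lower in 42.8% and higher in 5.48%. In the 2715 regions with a rod count 2 to 4-fold above, the shares were 29.4% and 9.17%. In the 14397 regions with counts within 2-fold they were 13.0% and 28.0%, near those of all regions. In the 3433 regions with a rod count over 4-fold below, both were lower in 7.05% and higher in 32.0%. The median log2 difference in fold enrichment was −0.29 in the first of these groups and 0.18 in the last. In the 46 regions that overlapped the rod only class, both double-sorted libraries were lower in 10.9% and higher in 28.3%. Their median difference was 0.16 in fold enrichment and 0.26 in pileup. It was 0.16 and 0.38 in 330 regions of the blue cone only class, and 0.18 and 0.42 in 152 of the bipolar only class.

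In pileup, regions with the lowest ratio were above those within 2-fold, and regions with the highest ratio below them, in both double-sorted libraries, whereas in fold enrichment regions with the lowest ratio were not above those within 2-fold in double 4. Taken singly against the mean of the single-sorted libraries, the median log2 difference in pileup at regions with rod counts over 4-fold above blue cone counts was −0.45 in double 3 and −0.38 in double 4. At regions with rod counts over 4-fold below, it was 0.65 and 0.26. In fold enrichment the medians from the lowest to the highest ratio were 0.28, 0.25, 0.06, −0.26 and −0.27 in double 3 and 0.09, 0.11, 0.12, −0.03 and −0.25 in double 4. Across regions, the log2 difference in pileup between the sorts had a Pearson r of −0.51 and a Spearman correlation of −0.59 with the log2 ratio of rod to blue cone count, and the values for fold enrichment were −0.28 and −0.33. With double 3 alone r was −0.48 for pileup and −0.35 for fold enrichment, and with double 4 alone −0.29 and −0.08. For the ratio of pan-BC to blue cone count r was 0.02 for pileup and 0.01 for fold enrichment. These values are descriptions across 22976 regions that share libraries, depth and base composition. Only regions called in all 4 libraries entered, so that a weak region entered only where both shallower libraries had called it too. The median pileup in single 1 was 35, 34, 89, 83 and 59 reads from the lowest to the highest ratio. The part of this filter in the differences was not tested.

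**Figure D5:**
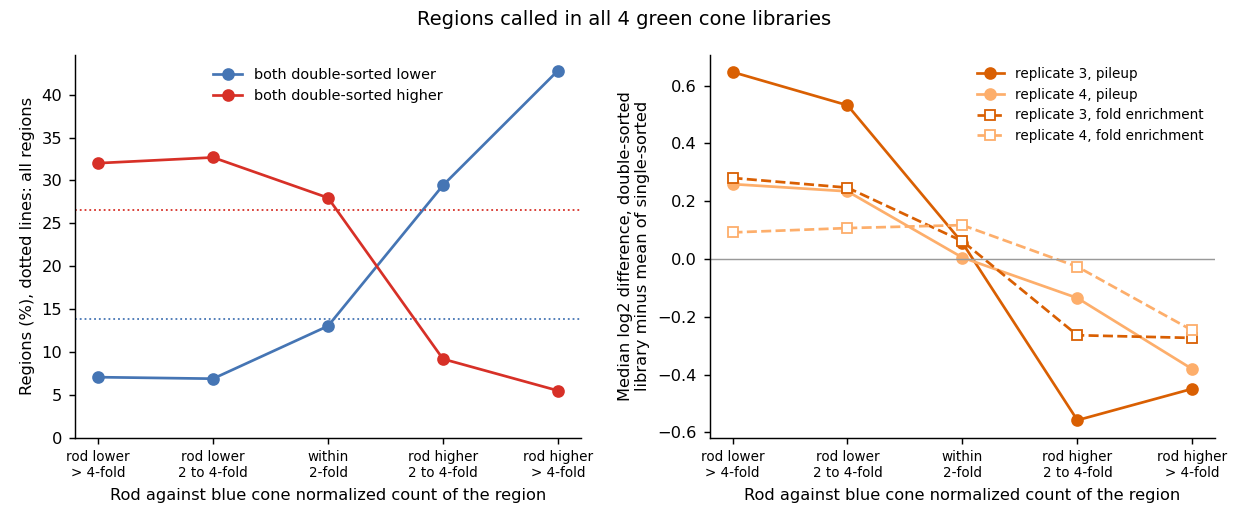
Regions called in all 4 green cone libraries, grouped by the ratio of rod to blue cone normalized count. Left, share of regions (%) in which both double-sorted libraries had a lower or a higher centred fold enrichment than both single-sorted ones, with dotted lines at 13.9% and 26.5% for all regions. Right, median log2 difference of each double-sorted library from the mean of the single-sorted ones, in pileup and in fold enrichment, which was 0.65 to −0.45 in pileup for double 3 and 0.26 to −0.38 for double 4 from the lowest to the highest ratio.

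Motif letters around the summits differed by little between the libraries. The K50 homeodomain motif TAATCC was found on either strand within 50 bp of the summit in 17.03% and 15.9% of single-sorted peaks and in 15.5% and 14.9% of double-sorted ones, so that the sorts did not overlap. In windows moved by 5000 bp it was found in 4.35% to 4.61%, and in 7.06% of all 300 bp RefSeq promoters. In distal peaks the values were 21.5%, 21.4%, 19.9% and 21.8%, and the sorts overlapped. With lists of equal size they were 16.4%, 15.8%, 15.3% and 14.9% over all peaks and 23.8%, 22.9%, 21.8% and 21.8% in distal ones. The Q50 homeodomain motif (TAATTA or TAATTG) was found in 5.86%, 5.13%, 5.99% and 4.91%, under the shares in moved windows (6.25% to 6.63%). In distal peaks it was found in 7.22%, 6.67%, 7.53% and 6.87%, above the moved windows of the same library (6.28%, 6.12%, 6.62% and 6.14%). The E-box (CAGCTG or CAGATG) was found in 17.04%, 16.9%, 16.8% and 15.8%, the CTCF core (AGAGGGC or AGATGGC or AGGGGGC or AGGTGGC) in 20.6%, 19.3%, 20.4% and 18.6% and the nuclear receptor motif (AGGTCA) in 9.10%, 8.87%, 8.98% and 7.98%. In moved windows the E-box was found in 12.2% to 12.6%, the CTCF core in 6.98% to 7.37% and the nuclear receptor motif in 6.16% to 6.43%. In 300 bp RefSeq promoters the shares were 12.4%, 30.6%, 27.6% and 16.3% for Q50, E-box, CTCF and nuclear receptor motifs. These promoters are longer than the 101 bp windows, so that the shares are not on the same scale. The MEF2 motif (TAAAAATA) was found in under 1% of peaks of each library (0.712%, 0.709%, 0.827% and 0.564%). In moved windows it was found in 1.60% to 1.68%, and in 2.72% of the 300 bp promoters.

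Of the sequences printed above, Pde6g, Lpin1 and Gfi1 of the single-sort regions and Gnat2 and Gnb3 of the cone promoters held TAATCC in the window shown, and the windows at Gnat1, Pde6b, Cnga1, Peli3, Opn1mw, Opn1sw, Caln1 and Nnmt did not. Around summits of single 1, the motif was found in 18.3% of peaks in regions called in both single-sorted libraries alone and in 15.5% of those called in all 4. Around summits of double 3 it was found in 19.9% of peaks in regions called in both double-sorted libraries alone. In regions of single 1 alone and of double 3 alone the shares were 18.7% and 15.4%. Promoters made up 43.6% of regions called in all 4. They made up 12.6% and 3.54% of regions called in both libraries of the single and double sort alone, and 9.33% and 4.17% in single 1 and double 3 alone. The part of promoter share in these values was not tested.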

How the data were processed

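The members, gene lists and comparisons were chosen with earlier results of these data known. Per the labels and the methods of the study, the authors mapped reads to GRCm38/mm10 (Bowtie2), removed poor and duplicate alignments (SAMtools, Picard), retained short, nucleosome-free fragments and ran MACS2 2.1.1 on every library by itself. The deposited peak lists hold a score, a ratio (fold enrichment at the summit), −log10 p-value and −log10 q value, and the offset of the summit. The deposited count table holds signal values, which are counts that the authors divided by 1 size factor per library, for 12 ATAC-seq libraries and regions of 200 bp. All columns were mapped to a sample, and values of the table were whole multiples of 1 read (within 0.01 of a read) in 100% of cases, with 7574103 and 4176776 reads in single 1 and single 2. MACS2 writes 1 line for each summit, and lines of the same interval were joined into 1 peak with its highest summit.

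The pileup and background of each summit were solved from its fold enrichment and −log10 p as a Poisson tail (tolerance 0.01), which gave a whole pileup for 99.998% to 100% of green cone peaks. In double 3, 7.40% of peaks allowed 2 pileups, and 0.245% in double 4. No 95% interval was computed, since the files give no reads outside peaks. Overlap meant at least 1 bp. Promoters were set on RefSeq transcripts of GRCm38. Differences between sorts were tested by exact permutation over libraries (two-sided), and regions by limma 3.58.1 in R 4.3.3 with Benjamini-Hochberg adjustment, since the files hold no counts for double sort. The scripts were tested on simulated data. Named loci were the 5 highest or the 5 with the smallest p of each kind, and marker genes with a promoter peak in some of the libraries or that define rods and cones. The RNA-seq files were not used, and some items are not reported here. Python 3.11.15, numpy 2.4.6, pandas 2.3.3 and scipy 1.17.1 were used.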

Additional observations from a re-analysis of the deposited data

How the results depend on the processing

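Rod marker genes with a promoter peak differed by −6 genes between the means of the sorts, by −7 at equal list size and by −7 with −log10 q of at least 5, and by −7.5 to −4.5 when 1 library was left out (alternatives chosen after seeing the data). Of 196 alternative values, 149 kept the direction and 43 turned it, 16 of these when 1 library was left out. The 149 include limma counts equal to the main count of 0 and a cone marker difference of 0, which have no direction. The rest were limma counts above the main one. With 1 library left out, the difference of double from single sort ranged from −13287 to 512 in peak number, and from −8.00 to 8.87 points in overlap with rod, −4.87 to 12.9 with blue cone, −1.21 to 9.39 with pan-BC, −0.861 to 9.74 with ON-BC and −0.860 to 12.3 points with OFF-BC peaks. It ranged from −22.0 to 2.19 points in blue cone only and −2.39 to 2.35 in bipolar only regions, and from −0.581 to 0.501 for Q50, −1.33 to 0.437 for CTCF and −0.146 to 0.117 points for MEF2 letters. Regions called by limma in fold enrichment ranged from 0 to 1802, the highest without double 4 (328 without double 3), and in pileup from 0 to 7892, the highest without double 4 (622 without double 3).

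Over all peaks the differences were 0.435 points for rod, 4.02 for blue cone, 4.09 for pan-BC, 4.44 for ON-BC and 5.72 for OFF-BC overlap. At equal list size they were −6.66, −3.74, −0.605, −0.525 and −0.351, and with the 10000 highest peaks (chosen after seeing the data) −4.44, −0.635, −2.08, −2.23 and −1.19. Rod overlap was also lower with 50% of both peaks (−2.19), with a call in at least 1 rod library (−0.395) and in distal peaks (−1.49). Median fold enrichment was higher by 0.278 with −log10 q of at least 5. Blue cone only regions gave 4.47 at equal list size and 1.51 with 10000 peaks, and shared photoreceptor regions 0.266 with 10000 peaks. Bipolar only regions gave 0.646 at equal list size, 0.0521 in distal regions, 0.0240 with the summit inside and 0.0128 with 10000 peaks. Q50 letters gave 0.0393 at equal list size and 0.252 in distal peaks, CTCF letters 0.102 at equal list size and 0.00388 with 100 bp on each side, and MEF2 letters 0.0104 with 100 bp and 0.0226 in distal peaks. The cause of these turns was not tested. No paired analysis was possible because the single-sorted libraries are numbered 1 and 2 and the double-sorted ones 3 and 4, so that the sorts share no replicate number. With 2 libraries of each sort no exact test can go below p = 0.333, and peaks of under 3 to 4 reads were beyond the depth of the double-sorted libraries.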
